A study of Rattus norvegicus with 9 samples.

Results

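Interferon-stimulated genes were followed through 9 bulk RNA-seq libraries of rat oligodendrocyte precursor cells (OPCs), the cells that mature into the myelin-forming oligodendrocytes of the brain. The genes, 39 in all, were taken from a list of symbols that uses no threshold on a measured value, and the list was drawn up with earlier results of these data known. Of these, 38 matched a row among the 32623 gene IDs of the count table, each symbol a single row, and Samd9l was not analysed here. All 38 also passed the filter on low counts, which left 15321 genes for testing. The cells were purified wild-type rat OPCs from brain, grown for 5 days in a differentiation medium that was renewed every 2 days. The 3 groups of 3 libraries each were basal, 1 µM bavisant and 10 µM bavisant. Bavisant blocks the H3 receptor for histamine. The treatment labels give 1 µM for the lower dose, while the protocol text gives 1 mM. Each group holds libraries numbered P11, P13 and P14, and the labels do not say what P marks. No source used here calls them cultures or animals of their own, and the spread behind the p-values may therefore be technical.

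Type I interferons are secreted when a cell senses viral or misplaced nucleic acid. They bind the receptor made of Ifnar1 and Ifnar2, whose kinases Jak1 and Tyk2 switch on a transcription factor complex, ISGF3, that contains Stat2 and Irf9. ISGF3 binds the interferon-stimulated response element in the promoters of antiviral genes, while type II interferon acts mainly through the GAS element. In the brain, microglia and astrocytes respond strongly to interferon, and oligodendrocytes respond too.

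Promoter windows are shown for genes that hold the letters of the response element. The core of the element, GAAA followed by any 2 bases and a second GAAA, was searched on both strands (so also as TTTC, any 2 bases, TTTC) in the RefSeq GRCr8 sequence from 250 bases before to 50 after each gene start, and 28 of the 38 genes matched an entry. The core was present in 17 of the 28 promoters (60.7%) and not matched in the other 11, against 1312 of 33469 promoters in the whole table (3.92%). The GAS letters TTCNNNGAA, which read the same on both strands, were in 6 of the 28 (21.4%), against 8.87% of all promoters. The GAS search can overlap the response element search. A window around the match is given for 4 genes of the antiviral and signalling arm and for 4 genes whose levels differed between P numbers, with the matched letters in capitals, 5′ to 3′ on the gene's strand.
Ifit3, chr1:241527257-241527316, plus strand: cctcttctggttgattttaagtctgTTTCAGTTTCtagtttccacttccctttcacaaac
Rsad2, chr6:48788233-48788292, minus strand: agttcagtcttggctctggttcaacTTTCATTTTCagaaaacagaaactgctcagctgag
Oas1a, chr12:41330400-41330465, plus strand: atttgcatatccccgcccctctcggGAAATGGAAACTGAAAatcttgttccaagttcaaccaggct
Irf7, chr1:205800058-205800117, minus strand: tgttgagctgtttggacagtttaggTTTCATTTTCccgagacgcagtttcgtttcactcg
Bst2, chr16:18255058-18255123, minus strand: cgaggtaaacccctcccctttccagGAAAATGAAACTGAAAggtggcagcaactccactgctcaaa
Ifitm3, chr1:205541768-205541827, minus strand: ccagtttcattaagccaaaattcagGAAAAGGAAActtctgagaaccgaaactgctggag
Gbp2, chr2:234005671-234005730, plus strand: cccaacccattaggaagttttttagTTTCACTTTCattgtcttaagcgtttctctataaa
Gbp5, chr2:233910918-233910977, plus strand: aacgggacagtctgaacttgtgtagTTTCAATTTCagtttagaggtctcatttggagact
In Oas1a and Bst2 the capitals run on because 2 matches overlap. The match is a description of letters, and no binding was measured. The genes Mx2, Ifit2, Oas2, Zbp1, Adar, Ddx58, Dhx58, Isg15, Usp18 and Rtp4 had no entry and are named only.

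The libraries held 23.9 to 43.1 M estimated reads, 321 M in all. The oligodendrocyte-lineage markers, 12 of 12 found and none at 0, summed to 36500 to 40810 TPM, a length-scaled level, in basal libraries, 35330 to 41550 TPM at 1 µM and 48290 to 53280 TPM at 10 µM, so the labelled cell type has its markers. The microglia and macrophage markers, 17 of 17 found and none at 0, summed to 1222 to 1835 TPM in basal libraries, 1385 to 1922 TPM at 1 µM and 1171 to 1469 TPM at 10 µM. The astrocyte markers, 9 of 9 found and none at 0, summed to 1869 to 2342 TPM basal, 1726 to 2480 TPM at 1 µM and 1416 to 2012 TPM at 10 µM. In these bulk libraries fewer cells of a type and less RNA per cell cannot be told apart.

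One library stood apart from the rest: the 1 µM library numbered P13. It was the highest of the 9 libraries for 37 of the 38 interferon-stimulated genes, against 8.12% of all genes tested, and Gbp6, highest in the 1 µM P14 library, was the exception. The genes summed to 1622 TPM in that library, against 336.8 to 517.5 TPM in the other 8. Relative to the median TPM of the other 8 libraries, 9 genes were at 10-fold or more, 23 lay from 2-fold to under 10-fold, and 6 were under 2-fold, with a median ratio of 4.19. This library holds 1 of the 3 samples of the lower dose, so results for that dose are given below with and without it.

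**Figure D1:**
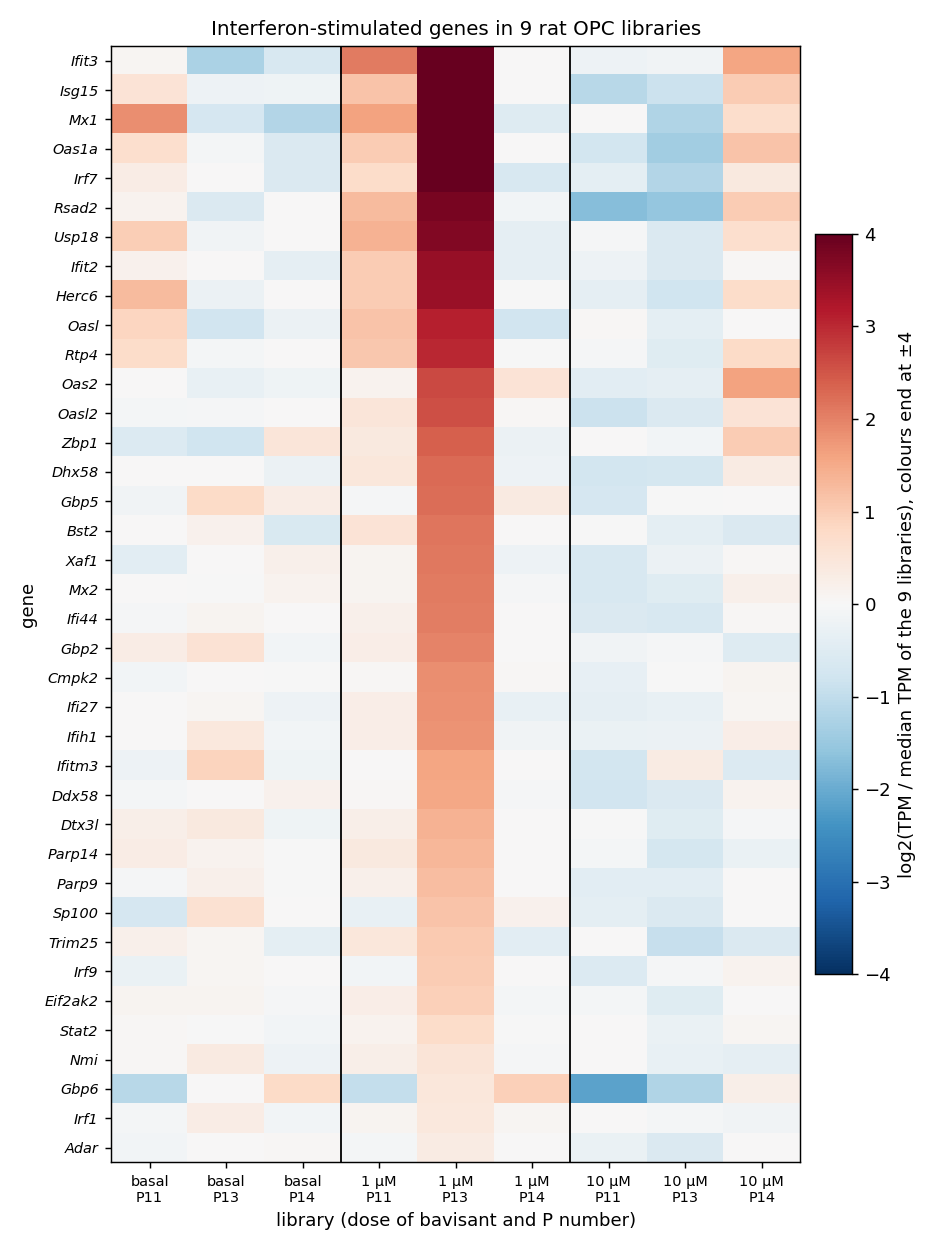
Log2 of TPM relative to the median of the 9 libraries, for 38 interferon-stimulated genes (rows) in libraries ordered by dose and P number (columns). The 1 µM P13 column is the highest in 37 of 38 rows, and colours end at ±4.

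By the normalised read counts (CPM), 25 of the 38 genes (65.8%) were at least 2-fold above the highest of the other 8 libraries in 1 µM P13, against 54 of all 15321 genes (0.352%). The same count was 0 to 6 genes in each of the other 8 libraries, with 0 interferon-stimulated genes in all of them. Of those 54 genes, 25 are described here, 12 belong to a second list of interferon-stimulated genes and 17 to neither. The second list had 41 of 50 tested genes highest in this library. Among the 17, named after their values were seen, were Apol9a, Samd9, Slfn4, Cfb, a complement factor, and the chemokine genes Ccl2, Ccl7 and Ccl12. Just inside the 2-fold limit lay Dtx3l at 2.02-fold, and just outside it Oas2 and Parp9 at 1.99-fold each.

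**Figure D2:**
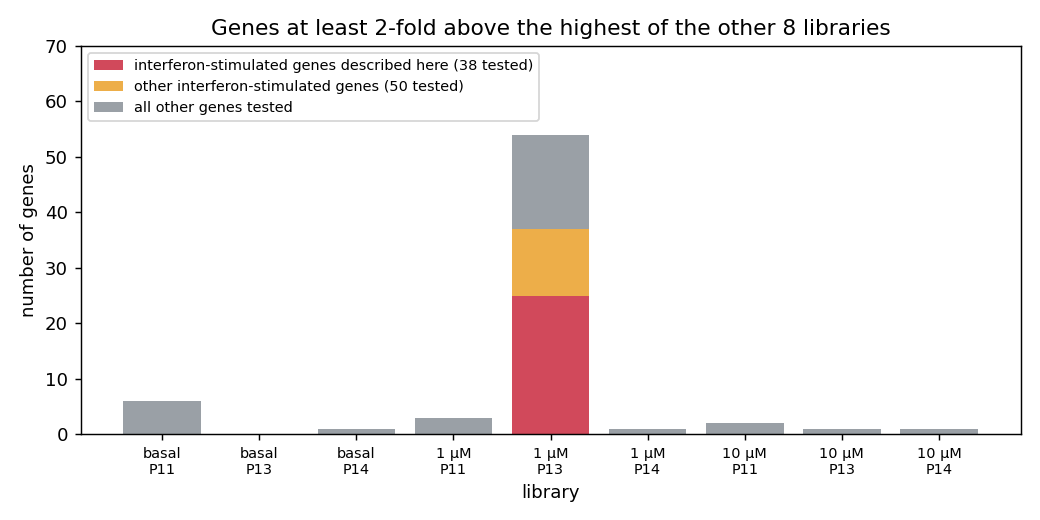
Number of genes, in each of the 9 libraries, whose normalised count was at least 2-fold above the highest of the other 8 libraries. The 1 µM P13 bar holds 54 genes, 25 of them described here and 12 of the second list of interferon-stimulated genes, and the other bars hold 0 to 6.

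In the following, a triple of TPM values is always in the order P11, P13 and P14. TPM is scaled to gene length, so levels can be compared between genes.

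The transcription factors of the pathway differed widely in that library. Irf7 (ENSRNOG00000017414), the factor that amplifies interferon production, had 3.03, 2.48 and 1.66 TPM in basal libraries, 4.13, 40.2 and 1.60 TPM at 1 µM, and 1.91, 1.10 and 3.22 TPM at 10 µM. It stood 9.07-fold above the next library in 1 µM P13, and its other 8 values spanned 1.10 to 4.13 TPM with the 3 groups overlapping. Irf9 (ENSRNOG00000019478), the DNA-binding subunit of ISGF3, had 14.1, 17.9 and 17.3 TPM basal, 15.6, 34.7 and 17.0 TPM at 1 µM, and 11.6, 16.4 and 18.6 TPM at 10 µM. Stat2 (ENSRNOG00000031081), its partner, had 26.4, 24.8 and 23.5 TPM basal, 27.9, 42.0 and 25.1 TPM at 1 µM, and 25.3, 21.2 and 26.7 TPM at 10 µM. Both were highest in 1 µM P13, by 1.81-fold and 1.42-fold over the next library. Irf1 (ENSRNOG00000008144), a factor driven mainly by type II interferon and by NF-kB, had 9.07, 11.8 and 8.86 TPM basal, 10.3, 12.9 and 10.1 TPM at 1 µM, and 9.59, 9.09 and 8.70 TPM at 10 µM. The excess of 1 µM P13 over the next library was 1.09-fold for Irf1, the smallest among the 37 genes that were highest there.

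The antiviral effectors, 15 genes, held the widest range, from 1.29-fold for Adar to 114-fold for Ifit3 over the median of the other 8 libraries. Ifit3 (ENSRNOG00000022839), which binds viral RNA together with its relatives, had 0.214, 0.084 and 0.129 TPM basal, 0.855, 22.0 and 0.203 TPM at 1 µM, and 0.175, 0.185 and 0.600 TPM at 10 µM. Its level rested on 3 to 40 reads in the other 8 libraries and on 912 reads in 1 µM P13, so the low values carry a wide counting error. Ifit2 (ENSRNOG00000036604), of the same family, had 2.49, 2.20 and 1.71 TPM basal, 4.47, 24.4 and 1.73 TPM at 1 µM, and 1.92, 1.48 and 2.25 TPM at 10 µM. For both genes the second highest library was 1 µM P11.

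Mx1 (ENSRNOG00000001959), a GTPase that blocks influenza viruses, had 11.5, 1.98 and 1.40 TPM basal, 9.54, 61.1 and 2.23 TPM at 1 µM, and 3.16, 1.38 and 5.19 TPM at 10 µM. Basal P11 was above every 10 µM library for this gene, and basal P13 and P14 were near the lowest. Part of its reads were fractional, as were those of Mx2, Oas1a, Gbp6 and Sp100, and reads shared with similar genes may make their levels uncertain. Mx2 (ENSRNOG00000001963), the second Mx gene, was far more abundant, at 48.7 to 53.7 TPM basal, 47.9 to 208 TPM at 1 µM and 31.2 to 56.6 TPM at 10 µM.

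Rsad2 (ENSRNOG00000007539), viperin, which disturbs viral RNA synthesis, had 2.21, 1.35 and 2.00 TPM basal, 4.83, 27.8 and 1.87 TPM at 1 µM, and 0.612, 0.687 and 4.0 TPM at 10 µM. Oas1a (ENSRNOG00000001369), which makes the 2-5A messenger that activates RNase L, had 3.77, 2.25 and 1.58 TPM basal, 4.70, 39.1 and 2.35 TPM at 1 µM, and 1.42, 0.897 and 5.18 TPM at 10 µM. Its relative Oas2 (ENSRNOG00000049282) had 0.254, 0.205 and 0.227 TPM basal, 0.277, 1.57 and 0.374 TPM at 1 µM, and 0.189, 0.198 and 0.768 TPM at 10 µM. In these 3 genes the 10 µM P14 library was well above 10 µM P11 and P13. Oasl and Oasl2, the other genes of the family, stood 3.70-fold and 3.98-fold above the next library in 1 µM P13.

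Bst2 (ENSRNOG00000059900), tetherin, which holds budding viruses at the cell surface, had 20.0, 22.7 and 13.1 TPM basal, 29.4, 88.2 and 20.0 TPM at 1 µM, and 19.8, 15.4 and 13.5 TPM at 10 µM. Ifitm3 (ENSRNOG00000015078), which hinders viral entry from endosomes, had 46.4, 99.7 and 48.1 TPM basal, 53.7, 160 and 53.9 TPM at 1 µM, and 32.2, 67.6 and 36.4 TPM at 10 µM. For Ifitm3 the P13 library was the highest in every group, and within each P number the 10 µM library was the lowest. Zbp1 (ENSRNOG00000006314), a sensor of Z-form nucleic acid, was scarce, with 0.311, 0.262 and 0.649 TPM basal, 0.604, 2.43 and 0.387 TPM at 1 µM, and 0.459, 0.428 and 0.930 TPM at 10 µM.

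Eif2ak2 (ENSRNOG00000048315), the kinase PKR that halts translation on double-stranded RNA, had 28.2, 28.0 and 25.5 TPM basal, 31.2, 50.9 and 25 TPM at 1 µM, and 24.7, 18.9 and 26.2 TPM at 10 µM. Adar (ENSRNOG00000020744), which edits adenosine to inosine in double-stranded RNA, had 24.0, 26.3 and 26.6 TPM basal, 24.8, 32.7 and 26.0 TPM at 1 µM, and 21.4, 17.4 and 26.0 TPM at 10 µM. Among the antiviral effectors these had the smallest excess in 1 µM P13, 1.58-fold and 1.23-fold over the next library. Cmpk2, a mitochondrial nucleotide kinase, stood 3.27-fold above the next library there.

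The 3 RNA sensors of the RIG-I family stood 2.60-fold to 3.27-fold above the next library in 1 µM P13. Ddx58 (ENSRNOG00000006384), RIG-I itself, had 10.1, 10.7 and 12 TPM basal, 11.1, 31.1 and 10.4 TPM at 1 µM, and 6.24, 7.16 and 11.9 TPM at 10 µM. Ifih1, which encodes MDA5, stood 2.63-fold above the next library in 1 µM P13, and Dhx58, which encodes LGP2, 3.27-fold.

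The ISG15 system and ubiquitin ligases held the gene with the second largest excess, Isg15 (ENSRNOG00000021802), whose product is a ubiquitin-like protein joined to other proteins. It had 3.98, 2.35 and 2.40 TPM basal, 5.96, 68.8 and 2.70 TPM at 1 µM, and 1.25, 1.49 and 5.5 TPM at 10 µM. Usp18 (ENSRNOG00000037198), which removes ISG15 and damps the interferon receptor, had 7.40, 3.44 and 3.76 TPM basal, 9.84, 48.6 and 2.92 TPM at 1 µM, and 3.62, 2.53 and 5.94 TPM at 10 µM. Their excess over the next library was 10.8-fold and 4.68-fold. Herc6, the ligase that joins ISG15 to its targets in mouse, stood 4.40-fold above the next library. Trim25 (ENSRNOG00000002341), a ubiquitin ligase that acts on RIG-I, had 10.4, 9.71 and 6.91 TPM basal, 12.4, 19.0 and 6.84 TPM at 1 µM, and 9.12, 4.78 and 6.08 TPM at 10 µM. Its excess was 1.45-fold, and Dtx3l, the partner ligase of Parp9, had 2.02-fold.

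The ADP-ribosyltransferases Parp9 and Parp14 modify proteins with ADP-ribose, and both were highest in 1 µM P13. Parp9 (ENSRNOG00000023463) had 13.5, 16.1 and 13.8 TPM basal, 16.0, 33.0 and 14 TPM at 1 µM, and 10.5, 10.5 and 14.3 TPM at 10 µM. Parp14 (ENSRNOG00000023334) had 8.31, 7.45 and 6.68 TPM basal, 8.92, 16.8 and 6.74 TPM at 1 µM, and 6.34, 4.11 and 5.58 TPM at 10 µM. Parp14 was the one gene of the 38 with every 10 µM TPM under every basal TPM, against 7.97% of the 14371 genes with at least 1 TPM in 3 or more libraries.

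The guanylate-binding proteins are GTPases that attack the membranes of intracellular pathogens and respond chiefly to type II interferon. Gbp2 (ENSRNOG00000031743) had 17.1, 20.9 and 12.9 TPM basal, 16.7, 55.9 and 14 TPM at 1 µM, and 12.6, 13.7 and 9.88 TPM at 10 µM. Gbp5 (ENSRNOG00000032240) had 4.11, 7.60 and 5.54 TPM basal, 4.36, 21.1 and 5.83 TPM at 1 µM, and 2.81, 4.48 and 4.50 TPM at 10 µM. Gbp6 (ENSRNOG00000002134) had 7.27, 15.7 and 26.5 TPM basal, 8.08, 21.6 and 30.3 TPM at 1 µM, and 3.59, 6.79 and 18.5 TPM at 10 µM. Gbp6 was lowest in P11 and highest in P14 in every group, a pattern that neither Gbp2 nor Gbp5 had. In each P number all 3 genes were lower at 10 µM than in the basal library.

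The other 6 genes were Ifi27, whose mean TPM was the highest of the 38 in each group but overlapped that of Ifitm3, at 58.9 to 71.9 TPM basal, 55.5 to 245 TPM at 1 µM and 52.8 to 71.5 TPM at 10 µM, with Ifi44, Xaf1, Rtp4, Nmi and Sp100. Their excess in 1 µM P13 over the next library was 2.81-fold for Ifi27, 3.57-fold for Ifi44, 3.64-fold for Xaf1, 3.61-fold for Rtp4 and 1.44-fold for Sp100. Nmi (ENSRNOG00000027502), a partner of STAT proteins, had 10.2, 12.8 and 8.55 TPM basal, 11.7, 14.3 and 9.69 TPM at 1 µM, and 9.92, 8.11 and 7.67 TPM at 10 µM, with an excess of 1.10-fold.

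**Figure D3:**
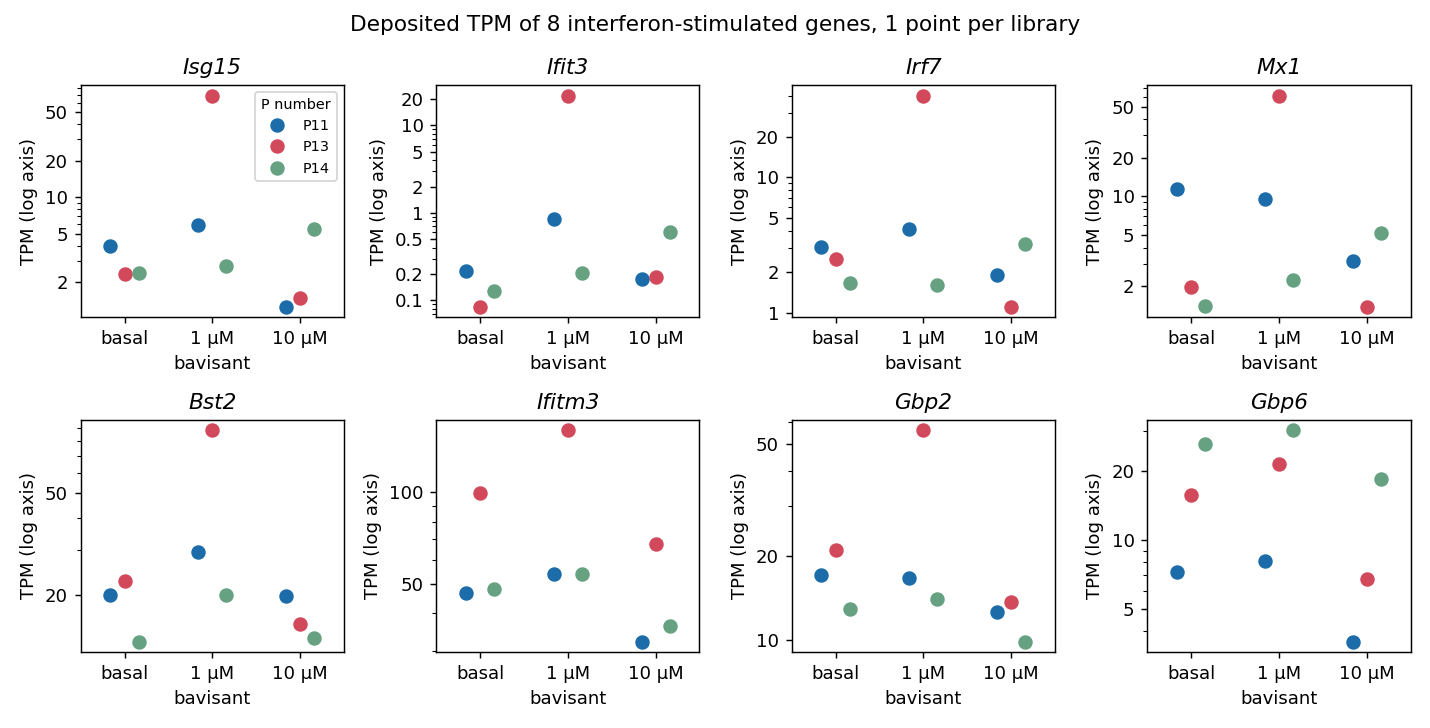
TPM on a log axis of 8 interferon-stimulated genes in basal, 1 µM and 10 µM libraries, 1 point per library, coloured by P number. The 1 µM P13 point is the highest in 7 panels, and in the Gbp6 panel the 1 µM P14 point is highest at 30.3 TPM.

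Among the genes with a promoter entry, those with the response element core had a median excess of 2.77-fold in 1 µM P13 over the next library and those without it 1.81-fold. The excess reached 2-fold in 13 of 17 genes with the core and in 4 of 11 without it. For the GAS letters the medians were 1.80-fold with and 2.79-fold without a match. The excess reached 2-fold in 2 of 6 genes with them and in 15 of 22 without. The 10 genes with no entry, among them Isg15 at 10.8-fold and Adar at 1.23-fold, fall outside these splits. A link between the letters and the excess was not tested. Mx1, with no match in its window, stood 5.09-fold above the next library, and Nmi and Ifitm3, with a match, 1.10-fold and 1.59-fold.

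Sums of cell type markers were set beside this for 1 µM P13 and basal P13. The microglia and macrophage markers summed to 1922 TPM in 1 µM P13, against 1835 TPM in basal P13, a ratio of 1.05. The mural and fibroblast markers summed to 278.1 TPM, against 212.7 TPM. The sums were 35330 against 36500 TPM for oligodendrocyte-lineage, 2061 against 2246 TPM for astrocyte, 443.6 against 498.2 TPM for neuron and 24.99 against 28.06 TPM for endothelial markers. The interferon-stimulated genes summed to 1622 TPM, against 517.0 TPM, a ratio of 3.14. The part of cell types in their excess was not tested. Against the 10 µM P13 library the sum of the interferon-stimulated genes was 4.52 times as high. The interferon genes themselves had almost no reads: of 11 ligand genes, 9 were without a read in every library. A total of 0 reads still permits 3 reads in the pooled libraries, equal to 0.00935 CPM, as far as counting error goes. Ifnb1 had 1 read, in 1 µM P13, and Ifne had 2 reads, 1 each in basal P11 and 1 µM P11. Of the 10 µM libraries none held a ligand read.

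The lower dose was compared with basal to ask whether these genes changed at 1 µM. With edgeR's quasi-likelihood test and Benjamini-Hochberg adjustment over all genes, 0 of 38 genes were called, against 0% of all genes, with 8 of the 38 and 81 of all 15321 at an unadjusted p under 0.05. DESeq2 called 1, Ifit3, against 0.0131% of all genes called higher. Limma on log2(TPM + 1) called 0 of the 35 genes of the list that it tested. Ifit3, Oas2 and Zbp1 were not tested there, as they missed its filter of at least 1 TPM in 3 libraries. The median log2 fold change over the 38 was 0.995, and 0.10 without the 1 µM P13 library. Isg15 had a log2 fold change of 3.14 ± 1.19 (SE, n = 3 each), with an edgeR adjusted p of 1, and without 1 µM P13 it was 0.60. Ifit3 had 5.74 ± 1.74 in edgeR (adjusted p = 1) and an adjusted p of 0.0292 in DESeq2, and without 1 µM P13 its edgeR value was 1.91. Bst2 had 1.28 ± 0.51 (edgeR adjusted p = 1), and 0.45 without that library.

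Within P numbers the same contrast split. The median log2 CPM ratio of 1 µM over basal across the 38 genes was 0.23 in P11, 1.88 in P13 and -0.01 in P14, with 33, 38 and 18 genes higher. Over all genes these medians were within 0.01 of 0. In all 3 P numbers 14 of the 38 genes were above basal, against 13.7% of all genes, and 0 were below it in all 3, against 14.3%. As all 38 were above basal in P13, where the 1 µM library stood apart, the 0 was fixed by P13. The 14 depends on P11 and P14 alone, so the share of all genes is not a like background for it. A term for P number (the block) left 0 of 38 called in edgeR, against 0% of all genes, with 4 of the 38 and 582 of all genes at an unadjusted p under 0.05, and 0 in DESeq2. With the block and without 1 µM P13 the median log2 fold change of the 38 was 0.08.

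The higher dose was compared with basal in the same way. Without the block, edgeR called 0 of 38 genes lower or higher, against 0% of all genes, with 0 of the 38 and 808 of all 15321 genes at an unadjusted p under 0.05. DESeq2 called 0 of the 38 as well, and limma 0 of the 35 it tested. The median log2 fold change of the 38 was -0.15. With the block, edgeR called 1 of 38 genes lower, against 2.64% of all genes, and 0 higher, against 1.32%. That gene was Gbp6, which fell at 10 µM with a log2 fold change of -0.81 ± 0.16 (edgeR adjusted p = 0.0335, n = 3 each), and without the block had -0.73 ± 0.68 (edgeR adjusted p = 1).

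The blocked call of Gbp6 also held in DESeq2 (adjusted p = 6.91e-05). In edgeR it ended without basal P11 (-0.76, adjusted p = 0.109), basal P13 (-0.80, 0.146), basal P14 (-0.89, 0.102), 10 µM P13 (-0.61, 0.0812), 10 µM P11 (-0.77, 0.0595) or 1 µM P11 (-0.80, 0.0598). Of all genes these fits called 0, 1, 42, 96, 374 and 181 lower, in that order, against 405 with all libraries. The call also ended without all libraries of P11, P13 or P14, where 9, 37 and 0 of all genes were called lower. Its direction was the same in all of these.

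Without the 1 µM P13 library, which enters the fit only through the shared spread and the P13 term, the blocked edgeR fit called 3 of 38 genes lower at 10 µM than in basal libraries, against 2.51% of all genes. These were Gbp6 (-0.82 ± 0.13, adjusted p = 0.0277), Gbp2 (-0.42 ± 0.06, adjusted p = 0.0261) and Ifitm3 (-0.43 ± 0.07, adjusted p = 0.0277). With that library kept, Gbp2 had -0.41 ± 0.30 (adjusted p = 0.438) and Ifitm3 -0.43 ± 0.12 (adjusted p = 0.0791) in blocked edgeR, so the estimates stayed close and the standard errors differed. Blocked DESeq2 on all libraries called Ifitm3 (adjusted p = 0.021) beside Gbp6, against 4.18% of all genes called lower. Gbp5 (-0.48 ± 0.10, edgeR adjusted p = 0.0546) and Parp14 (-0.44 ± 0.10, edgeR adjusted p = 0.0610) did not pass the threshold in the blocked fit without 1 µM P13.

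The interferon-stimulated genes did not move one way across P numbers at 10 µM. The median log2 CPM ratio of 10 µM over basal was -0.38 in P11 and -0.45 in P13, with 34 and 32 of 38 genes lower, and 0.18 in P14, with 30 of 38 higher. Over all genes the medians were -0.01, -0.03 and 0.00. In P14 Mx1 had a ratio of 1.90, Ifit3 1.89, Oas2 1.65, Oas1a 1.39 and Isg15 1.21, while in P11 Mx1 had -1.82, Rsad2 -1.79, Isg15 -1.58 and Oas1a -1.34. The genes with the widest range over the libraries thus differed in sign between P numbers.

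The genes lower in all 3 P numbers were 8 of 38, against 24.3% of all genes: Gbp2, Gbp5, Gbp6, Ifitm3, Parp14, Trim25, Xaf1 and Nmi. Higher in all 3 was 1 gene, Zbp1, against 20.5% of all genes. Gbp6 had ratios of -0.97, -1.10 and -0.48 in P11, P13 and P14, Gbp2 -0.41, -0.50 and -0.35, and Ifitm3 -0.48, -0.45 and -0.35. Both shares lie near or under those of all genes.

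**Figure D4:**
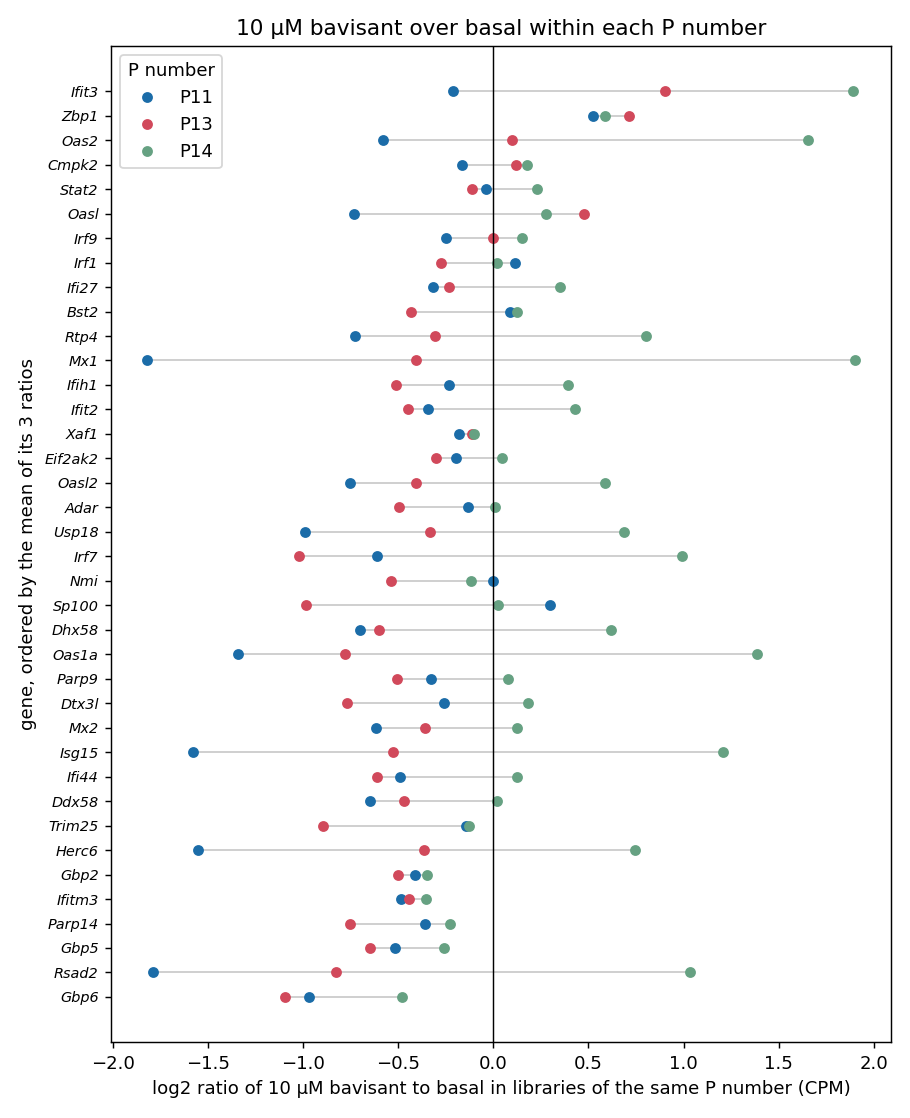
Log2 ratio of 10 µM bavisant to basal in libraries of the same P number, from normalised CPM, for 38 interferon-stimulated genes ordered by the mean of the 3 ratios. Mx1 runs from -1.82 in P11 to 1.90 in P14, while the points of Gbp2 and Ifitm3 lie together below 0.

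Markers of other cells moved with the genes that were lower at 10 µM. In blocked edgeR 4 of 17 microglia and macrophage markers fell at 10 µM relative to basal, against 2.64% of all genes called lower: Itgam (-0.47), Cd68 (-0.26), Cd14 (-0.54) and Mrc1 (-0.62), with a list median of -0.25, and 4 fell without 1 µM P13 too. Of the astrocyte markers 3 of 9 fell, with a median of -0.37. Of the neuron markers 4 of 8 fell, Gad1 (-0.60), Gad2 (-0.72), Slc32a1 (-0.33) and Stmn2 (-0.36), with a median of -0.27. Of the endothelial markers 1 of 6 fell, Eng (-0.53), and of the mural and fibroblast markers 0 of 7 were called, with a median of -0.46. Without 1 µM P13, 2 of 7 mural and fibroblast markers were called lower, Col1a1 (-0.46) and Col3a1 (-0.49), against 2.51% of all genes. In that fit the astrocyte count was 2 of 9. With all libraries kept, 8 of 12 oligodendrocyte-lineage markers rose at 10 µM relative to basal, with a median of 0.32, against 1.32% of all genes called higher. Their part in the lower Gbp6, Gbp2 and Ifitm3 levels was not tested.

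The 2 doses were compared with each other as well, and this contrast shares the 1 µM libraries with the first one. Without the block, edgeR called 0 of 38 genes, against 0% of all genes, with 20 of the 38 and 717 of all genes at an unadjusted p under 0.05. DESeq2 called 0 of the 38, and limma 0 of the 35 it tested. The median log2 fold change of 10 µM over 1 µM was -1.09, and -0.30 without 1 µM P13. With the block, edgeR called 2 of 38 lower, against 3% of all genes: Gbp6 (-1.09 ± 0.15, adjusted p = 0.0166) and Ifitm3 (-0.80 ± 0.11, adjusted p = 0.0166). Blocked DESeq2 called 3 of 38 lower, against 674 of all 15321 genes, with Bst2 (-1.16, adjusted p = 0.00229) beside Gbp6 and Ifitm3. In blocked edgeR Bst2 had -1.18 ± 0.34 and an adjusted p of 0.0934.

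Without the 1 µM P13 library, blocked edgeR called 1 of 38, Ifitm3 (-0.63 ± 0.08, adjusted p = 0.0468), against 0.142% of all genes, and Gbp6 had -0.92 ± 0.15 (adjusted p = 0.0566). Both calls also ended without 1 µM P11 (Gbp6 adjusted p = 0.0617, Ifitm3 0.0601), 1 µM P14 (0.0651 for each) or 10 µM P14 (0.0594 and 0.063), and that of Ifitm3 without 10 µM P13 (0.0524). Without 1 µM P11, 1 µM P14 or 10 µM P14, 0 genes of the whole table were called. Without 10 µM P13, 116 of 15439 genes were called lower, against 459 of 15321 with all libraries. In all 3 P numbers 10 of the 38 genes were lower at 10 µM than at 1 µM, against 21.9% of all genes, and 0 were higher in all 3, against 20.5%. In P11 and in P13 all 38 were lower, so the 10 are the genes lower in P14 and the 0 was fixed. The shares of all genes are therefore not a like background for these counts. The medians within P numbers were -0.65 in P11, -2.14 in P13 and 0.27 in P14.

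Levels also differed between the P numbers themselves. With dose in the model, edgeR called 7 of 38 genes (18.4%) between P numbers, against 51.5% of all genes, and 8 of 38 without 1 µM P13, against 48.6%. The 7 were Irf1, Bst2, Ifitm3, Gbp2, Gbp5, Gbp6 and Nmi. The count was 14 without 10 µM P13, against 53.9% of all genes. It was 4 without any 1 of basal P11, P13 and P14 or 1 µM P11 and P14, against 39.6% to 46.7% of all genes. Ifitm3 and Gbp6 were called in each of these fits. Ifitm3 differed most clearly (edgeR adjusted p = 6.83e-05), with a log2 fold change of -1.22 for P11 over P13 and 1.23 for P13 over P14. Gbp6 had -1.95 for P11 over P14 (edgeR adjusted p = 9e-05). Gbp5 (0.0196) and Gbp2 (0.0217) were called too, both highest in P13 of the 1 µM group and of the basal group. The microglia and macrophage markers summed to 1171 to 1385 TPM in the P11 libraries, 1469 to 1922 TPM in P13 and 1231 to 1788 TPM in P14, and their part in these differences was not tested.

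Upstream of these genes, the receptor and JAK-STAT list had 11 of 11 genes tested and 0 called in edgeR in any dose comparison, with or without the block. Ifnar1 (ENSRNOG00000028594), a receptor chain, had 48.4, 64.6 and 59.4 TPM basal, 47.1, 63.1 and 60.0 TPM at 1 µM, and 45.2, 52.7 and 56.5 TPM at 10 µM. Ifnar2, the other chain, had 15.1 to 23.9 TPM over all libraries. Neither receptor chain was highest in the 1 µM P13 library.

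Sensors and adaptors upstream of interferon had 13 of 16 listed symbols matched and tested. In blocked edgeR 0 were called at 1 µM or 10 µM against basal. Of the 13, 1, the adaptor Myd88, was lower at 10 µM than at 1 µM (-0.43, blocked edgeR adjusted p = 0.0327), against 3% of all genes. Of 10 negative regulators, 1, Ptpn6, a phosphatase of blood and microglial cells, was lower at 10 µM than at 1 µM (-0.44, blocked edgeR adjusted p = 0.0254). The share of all genes is the same 3%, and 0 regulators were called in the other comparisons. Without the 1 µM P13 library Myd88 had -0.43 (blocked edgeR adjusted p = 0.105) and Ptpn6 -0.46 (0.0848). In that fit 1 of the 13 sensors and adaptors, Tlr7, a sensor of single-stranded RNA, was called lower at 10 µM than in basal libraries (-0.48), against 2.51% of all genes.

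The second list of interferon-stimulated genes had 58 of 62 symbols matched and 50 tested. In blocked edgeR 1 of 50 was lower at 10 µM than in basal libraries, Ifitm2, a relative of Ifitm3 (-0.36 ± 0.08, adjusted p = 0.0392), against 2.64% of all genes, and 0 were called at 1 µM. Without 1 µM P13 Ifitm2 had the same -0.36 ± 0.08 in blocked edgeR (adjusted p = 0.0538), and Lgals9 (-0.41), a galectin, was the 1 gene called lower. Between the doses 5 of 50 were lower at 10 µM, against 3% of all genes: Ifitm2 (-0.54), the factor Irf8 (-0.39), Trim5 (-0.51) and the immunoproteasome subunits Psmb8 (-0.80) and Psmb9 (-0.74). Without the 1 µM P13 library 0 of 50 were called, while the genes called lower over the whole table went down to 22, against 459 with it. The 5 log2 fold changes in that fit were -0.56 for Ifitm2, -0.45 for Irf8, -0.37 for Trim5, -0.57 for Psmb8 and -0.49 for Psmb9, with blocked edgeR adjusted p of 0.0566 to 0.128. Cxcl10, a chemokine, had 3.91, 5.66 and 6.26 TPM basal, 10.7, 47.9 and 4.38 TPM at 1 µM, and 2.21, 3.96 and 5.80 TPM at 10 µM, and so showed the same high library.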

How the data were processed

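RNA was extracted with RNeasy and made into stranded mRNA libraries sequenced on an Illumina NextSeq, per the labels' protocols. The submitters' processing notes name FastQC, Trimmomatic, DRAGEN, Picard and build rn6. The counter was not given in the sources used here, nor were its strand setting and the annotation. The deposited estimated counts (92.4% to 93.0% whole numbers per library) and the deposited TPM, a per-length unit, were both made by the authors. Estimated counts were rounded, filtered with edgeR's filterByExpr (minimum count 10, minimum total 15), normalised by TMM and tested with edgeR 4.0.16 (quasi-likelihood, Benjamini-Hochberg over all genes, threshold 0.05) in R 4.3.3, all 9 libraries in one fit. Fractional reads may come from genes with similar sequence. CPM ratios used a prior count of 2.

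Libraries with the same P number deviated together from their group means in all 9 pairs across groups (correlation 0.319 to 0.772), so the numbers pair the libraries and a fit with P number as a block is given beside the other. The titles carry the numbers without a meaning. No 2 libraries of a group were alike within counting noise, with a chi-square of 23.8 to 117 for each degree of freedom. Alternatives were DESeq2 1.42.0, limma 3.58.1 on log2(TPM + 1), other scalings and filters, each library left out, and each P number left out with the block. The test scripts were tested on simulated data. The genes, lists and tests were chosen with earlier results of these data known. Values per library are given for genes called in a dose comparison with or without the block, the smallest p-values of the blocked 10 µM over basal comparison until 12 genes were reached, a fixed core of 17 genes, and the 4 smallest p-values between P numbers. Total reads limit precision as given by the reads beside the values. Genome coordinates of the study's build were not used. A gene of the pathway lists is not reported here.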

Additional observations from a re-analysis of the deposited data

How the results depend on the processing

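Without a P number term, the count of interferon-stimulated genes called was 0 in each dose comparison under every scaling, filter and limma setting run, except that DESeq2 called 1 at 1 µM over basal. With the replicate block, 10 µM over basal gave 1 gene, also with DESeq2 size factors, library totals or limma (1 each), and 2 in DESeq2, and 10 µM over 1 µM gave 2 in each of these and 3 in DESeq2. Limma tested 35 of the 38. Of all genes, blocked DESeq2 called 640 lower for 10 µM over basal and 674 for 10 µM over 1 µM, against 405 and 459 in blocked edgeR. The cause was not tested. Leaving out libraries gave 0 to 3 genes for 10 µM over basal, 0 to 0 for 1 µM over basal and 0 to 2 for 10 µM over 1 µM. Between P numbers 7 of 38 genes, against 51.5% of all genes, became 3 of 35 with limma (48.8%) and 4 with no dose term (43.4%). Without 1 library the count was 4 to 14 (14 without 10 µM P13), against 39.6% to 53.9% of all genes. Ifitm3 at 10 µM over basal turned to 0.012 without basal P13 and no block, in a range of -0.87 to 0.012. With 1 library left out, the median log2 fold change ranged from -0.57 to 0.28 at 10 µM over basal. It ranged from 0.08 to 1.34 at 1 µM over basal and from -1.445 to -0.23 at 10 µM over 1 µM. With all libraries of a P number left out, the last range was -1.47 to -0.19. At 1 µM over basal, Isg15 spanned 0.36 to 3.67 and Ifit3 1.56 to 6.41. Genes with few reads, such as Ifit3, Oas2 and Zbp1, are limited by depth.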
